A study of Homo sapiens with 12 samples.

Results

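Near-constitutive cassette exons are internal exons that almost every transcript of a gene includes, so that the only visible event is an occasional skip. They were taken here as the exons of more than 27 nt in the authors' splicing table that had at least 20 reads in each of the 12 libraries and a percent spliced in (PSI, the percent of transcripts that include the exon) above 90 as a mean over all 12 libraries. This chose 81929 of the 114125 cassette exons over 27 nt with enough reads, or 71.8%, and 81929 of the 338970 splicing events of all kinds with enough reads. They lay in 10184 genes. The exons were chosen by their measured PSI over all libraries, so high inclusion is a property of the choice and is given as a description.

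RNA was poly(A)-selected and sequenced from HEK293T, an established line derived from human embryonic kidney, 48 h after plasmids for an effector (200 ng) and a guide RNA (200 ng) were delivered together. Every group thus carried a dCasRx protein, the catalytically dead form of an RNA-targeting CRISPR nuclease, and no group was left untransfected. There were 6 groups of 2 replicates: dCasRx alone with a nontargeting (NT) guide; dCasRx-RBM25 with the nontargeting guide, with a guide for activation of MAPT exon 10 or with a guide for repression of CD46 exon 13; and RBFOX1N-dCasRx-C with the nontargeting or the MAPT guide. The effectors were overexpressed from transfected plasmids, and bulk RNA does not tell a skip in some cells from a weaker skip in all of them. In the following text "RBM25 libraries" are the 6 with dCasRx-RBM25, "RBFOX1N libraries" the 4 with RBFOX1N-dCasRx-C, and "dCasRx libraries" the 2 with dCasRx alone.

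Most internal human exons are recognised by exon definition, in which U1 snRNP at the 5′ splice site and U2AF at the upstream 3′ splice site are bridged across the exon by SR proteins. Skipping occurs when that recognition fails or loses against the neighbouring exons, and exons that are very short, or that have weak splice sites, are known to be more prone to it. RBM25 is a U1 snRNP-associated factor that binds exonic CGGGCA elements, and RBFOX1 binds GCATG in RNA and is known to promote skipping or inclusion depending on which side of the exon it binds.

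Sequences are shown for 8 coding exons, chosen because each had lower inclusion with one effector than with another. They were read from GENCODE release 29 transcripts (GRCh38), 5′ to 3′ in the sense of the gene, with the last 3 bases of the exon, which pair with U1 snRNA, in capitals. MMS22L (chr6:97281237-97281362, minus strand), PNPLA6 (chr19:7554209-7554272, plus strand) and KHDRBS1 (chr1:32031524-32031640, plus strand) had lower inclusion in the RBM25 libraries. BCL3 (chr19:44758246-44758413, plus strand) and CDCA7 (chr2:173367150-173367286, plus strand) had lower inclusion in the RBFOX1N libraries. CTH (chr1:70429794-70429851 and chr1:70435125-70435177, plus strand) and CASC3 (chr17:40141570-40141607, plus strand) had lower inclusion in the dCasRx libraries.
MMS22L exon of 126 nt: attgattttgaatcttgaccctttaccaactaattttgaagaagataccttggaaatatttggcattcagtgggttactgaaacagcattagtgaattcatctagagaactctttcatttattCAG
PNPLA6 exon of 64 nt: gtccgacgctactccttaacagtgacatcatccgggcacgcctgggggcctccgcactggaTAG
KHDRBS1 exon of 117 nt: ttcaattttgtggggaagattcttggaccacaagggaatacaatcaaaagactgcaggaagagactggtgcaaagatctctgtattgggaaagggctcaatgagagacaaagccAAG
BCL3 exon of 168 nt: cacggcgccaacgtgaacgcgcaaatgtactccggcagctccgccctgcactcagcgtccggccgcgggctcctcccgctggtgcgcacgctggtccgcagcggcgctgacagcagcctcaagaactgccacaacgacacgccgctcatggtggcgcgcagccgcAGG
CDCA7 exon of 137 nt: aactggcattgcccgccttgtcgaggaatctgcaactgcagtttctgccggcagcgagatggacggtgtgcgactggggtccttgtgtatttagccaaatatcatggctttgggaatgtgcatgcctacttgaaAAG
CTH exon of 58 nt: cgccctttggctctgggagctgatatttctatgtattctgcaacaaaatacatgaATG
CTH exon of 53 nt: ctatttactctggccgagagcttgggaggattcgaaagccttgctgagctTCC
CASC3 exon of 38 nt: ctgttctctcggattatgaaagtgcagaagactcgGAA

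The letters CGGGCA, searched on the sense strand only, occurred once in the PNPLA6 exon and in none of the other 7 exons, and 0.915% of the 7650 near-constitutive exons within 10 nt of its length held them. GCATG, searched in the same way, occurred once in the CDCA7 exon and in none of the other 7, and 12.4% of the 10636 near-constitutive exons within 10 nt of that length held it. The base content of these exons ranged from 32.5% GC in MMS22L to 70.8% in BCL3. The last base was G in 6 of the 8 exons, all but the CTH exon of 53 nt and the CASC3 exon, and 80.6% of the near-constitutive exons with a sequence ended in G.

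Inclusion within the chosen set was close to complete. A mean PSI above 99 was held by 49897 exons (60.9%), one above 95 and up to 99 by 23607, and one above 90 and up to 95 by 8425. In 17966 exons (21.9%) no read of the skipping junction was counted in any library, and the median exon had 6 such reads over the 12 libraries together. The exons just inside the limit were in KIAA0513 (mean PSI 90.001), MYSM1 (90.002) and MINK1 (90.003), and those just outside were in LARP1 (89.997), KIF20B (89.998) and PABPC1L (89.998). The median exon was 120 nt long, 38.4% had a length that is a multiple of 3, and 92.7% matched an exon of GENCODE release 29 at both ends. A transcript that joins the neighbouring exons directly was annotated for 7.04% of them, against 49.9% of the 11958 cassette exons with a mean PSI of 10 to 90.

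Total gene counts were 32487927 to 53985468 per library. HEK293T lineage markers (KRT8, KRT18, VIM, PAX2, NEFM) were present in every library, with a summed level of 866.7 to 1094 CPM (gene counts scaled to the library total). Markers of other cell types summed to 1.02 to 2.35 CPM, and PTPRC, CD3E and HBB were at 0 in at least 1 library. Replicates of every group differed by more than sampling noise, with a chi-square per gene of 6.49 to 36.3. Libraries with dCasRx alone were the shallowest at these exons, with 13500000 and 12980000 reads on the junction scale, against 14270000 to 16360000 in the RBFOX1N libraries and 17160000 to 22600000 in the RBM25 libraries.

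Within the chosen exons, the mean level of skipping differed little between the effectors. The exons were chosen by mean PSI over these same libraries, which limits how far the skipping of an effector can rise. The limit is tightest for dCasRx-RBM25, which has the most libraries. Exons skipped strongly enough in the RBM25 libraries were left out, so similar levels cannot show that the effectors skip alike. The same limit holds for the classes of exons below. Averaged over exons, skipping (100 minus PSI) was 1.54% and 1.52% in the dCasRx libraries, 1.47% to 1.67% in the RBM25 libraries and 1.51% to 1.65% in the RBFOX1N libraries. The ranges overlapped. The share of skipping among all reads at these exons, with the RBM25 gene left out, was 1.31% and 1.28% in the dCasRx libraries, 1.28% to 1.49% in the RBM25 libraries and 1.31% to 1.45% in the RBFOX1N libraries. The RBM25 gene was left out because the effector itself carries RBM25 sequence: its exons had a median of 117100 reads in the RBM25 libraries and 401.2 in the dCasRx libraries.

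The skipping was distributed differently over exon lengths. In the 6143 exons of 28 to 60 nt, mean skipping was 2.30% and 2.41% in the dCasRx libraries, 1.72% to 1.93% in the RBM25 libraries and 1.67% to 1.84% in the RBFOX1N libraries. Both dCasRx libraries lay above all 10 others for these short exons. In the 13944 exons over 180 nt, mean skipping was 1.16% and 1.12% in the dCasRx libraries, 1.39% to 1.61% in the RBM25 libraries and 1.53% to 1.67% in the RBFOX1N libraries. Here both dCasRx libraries lay below all 10 others. From the shortest to the longest class, mean skipping thus fell from 2.36% ± 0.07 to 1.14% ± 0.03 (SD, n = 2) with dCasRx alone, from 1.84% ± 0.08 to 1.54% ± 0.09 (SD, n = 6) with dCasRx-RBM25, and from 1.77% ± 0.07 to 1.62% ± 0.06 (SD, n = 4) with RBFOX1N-dCasRx-C. The ordering was the same with counted junction reads and no mappability correction, at 2.44% and 2.54% in the dCasRx libraries against 1.77% to 2.03% in the others for the short exons, and 1.13% and 1.18% against 1.41% to 1.69% for the long ones. The dCasRx libraries were also the shallowest, and the part of depth in this pattern was not tested.

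**Figure D1:**
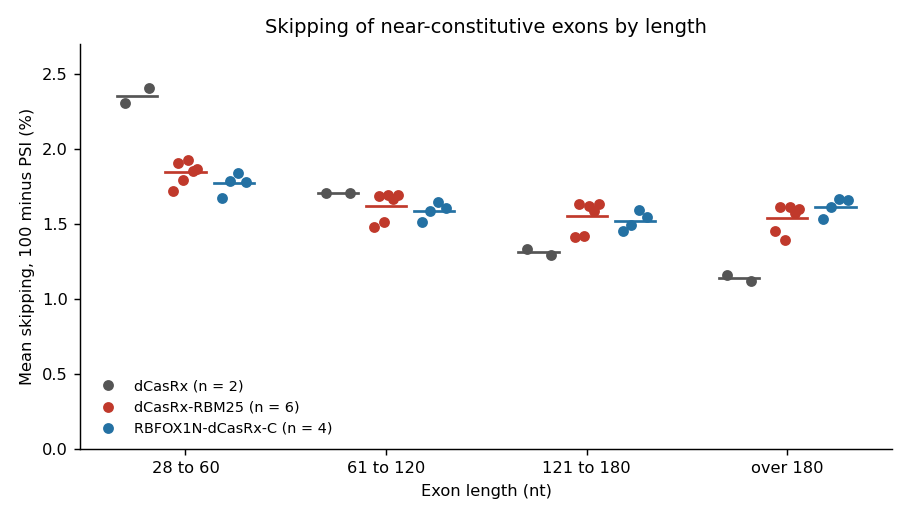
Mean skipping of near-constitutive exons (100 minus PSI, in percent, y axis) in 4 classes of exon length (x axis), with 1 point per library and a line at the mean of each effector, the RBM25 gene left out. The 2 dCasRx libraries are the highest at 28 to 60 nt (2.30% and 2.41%) and the lowest over 180 nt (1.16% and 1.12%).

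Skipping was also averaged over classes of intron length and base content. In the 9330 exons with both introns under 500 nt, mean skipping was 1.26% and 1.19% in the dCasRx libraries, 1.24% to 1.57% in the RBM25 libraries and 1.43% to 1.71% in the RBFOX1N libraries. All 4 RBFOX1N libraries lay above both dCasRx libraries there, and the RBM25 libraries overlapped with both. In the 22614 exons with both introns of 2000 nt or longer, the 3 effectors overlapped, at 1.96% and 1.97%, 1.84% to 2.04%, and 1.90% to 2.01%. In the 13601 exons with a GC content of 60% or more, mean skipping was 1.31% and 1.21% with dCasRx, 1.25% to 1.57% with dCasRx-RBM25 and 1.43% to 1.58% with RBFOX1N-dCasRx-C. In the 27689 exons with a GC content under 45%, the effectors overlapped. Values there were 1.62% and 1.65% with dCasRx, 1.59% to 1.75% with dCasRx-RBM25 and 1.49% to 1.62% with RBFOX1N-dCasRx-C.

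Single exons were compared between effectors with guides pooled. Of the 81929 exons, 31613 had enough reads of the skipped form for a test, and the other 50316 had too few. The limit was 24 reads over all libraries as corrected in the authors' splicing table, so some tested exons had fewer counted skipping reads. An exon was called at an adjusted p under 0.05, over all 100383 events tested, and a difference of at least 5 points of PSI. Because the mean over 12 libraries had to exceed 90, an exon skipped only in the dCasRx libraries could lose up to 60 points, one skipped only in the RBFOX1N libraries 30 points, and one skipped only in the RBM25 libraries 20 points. The balance and the size of falls and rises are therefore set in part by the choice of exons. Both fusions are compared with the same 2 dCasRx libraries, and the third comparison uses the same RBM25 and RBFOX1N libraries again.

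Between dCasRx-RBM25 and dCasRx, 632 near-constitutive exons in 537 genes were called, of which 276 had higher and 356 lower PSI with dCasRx-RBM25. This was 2.0% of those tested, against 2.35% of all events tested, or 1.03% higher and 1.33% lower. Between RBFOX1N-dCasRx-C and dCasRx, 580 exons in 488 genes were called, 303 higher and 277 lower, which was 1.83% of those tested against 3.11% of all events (1.63% higher, 1.48% lower). Between dCasRx-RBM25 and RBFOX1N-dCasRx-C, 1128 exons in 920 genes were called, 492 higher and 636 lower with dCasRx-RBM25, which was 3.57% of those tested against 7.04% of all events (3.41% higher, 3.63% lower). At 10 points, the counts fell to 75 higher and 41 lower, 73 higher and 82 lower, and 91 higher and 51 lower, in the same order of comparisons. Without dCasRx replicate 2, 206 exons were called with dCasRx-RBM25 (157 of the 632) and 258 with RBFOX1N-dCasRx-C (206 of the 580), and without dCasRx replicate 1, 370 and 404 (253 and 276 of them). With limma on logit PSI the counts against dCasRx were 478 (104 higher, 374 lower) and 419 (156 higher, 263 lower).

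The called exons differed in length by direction. Between dCasRx-RBM25 and dCasRx, the exons with higher PSI had a median length of 74 nt and those with lower PSI 145.5 nt, against 118 nt for all tested near-constitutive exons. Between RBFOX1N-dCasRx-C and dCasRx the medians were 75 nt and 165 nt. Between the fusions they were 137.5 nt for exons higher and 120 nt for exons lower with dCasRx-RBM25. Of the 2670 tested exons of 28 to 60 nt, 3.18% were higher and 0.749% lower with dCasRx-RBM25 than with dCasRx, and of the 5109 tested exons over 180 nt, 0.176% were higher and 1.94% lower. With RBFOX1N-dCasRx-C the corresponding shares were 3.63% and 0.599% for the short and 0.196% and 2.27% for the long exons. Both sets of shares use the same dCasRx libraries and are not independent of each other.

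**Figure D2:**
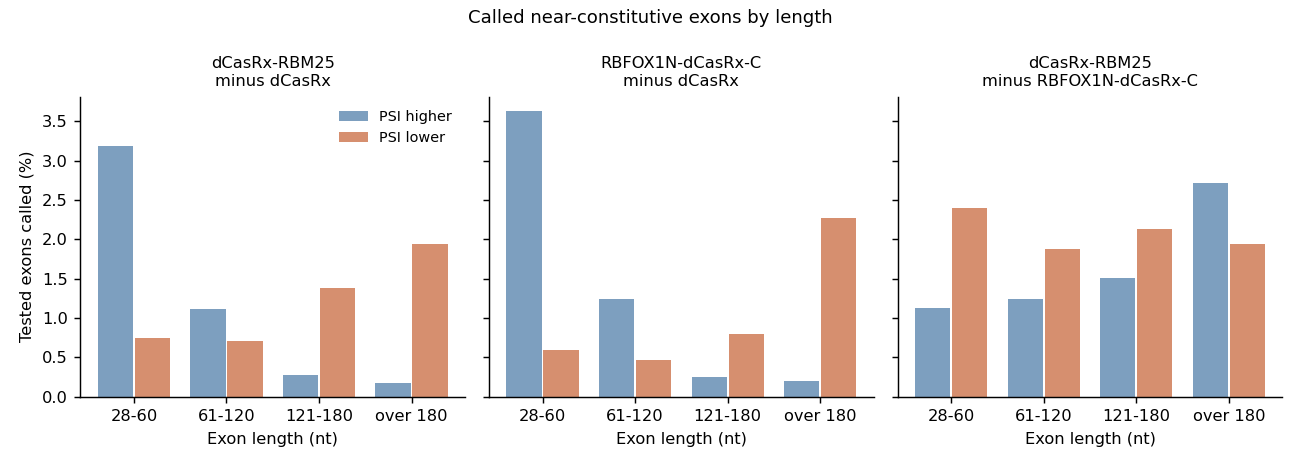
Percent of tested near-constitutive exons called with higher or lower PSI (y axis) by exon length (x axis), for each of the 3 comparisons of effectors. Against dCasRx, higher calls are most frequent at 28 to 60 nt (3.18% and 3.63%) and lower calls over 180 nt (1.94% and 2.27%), and the comparison of the fusions shows no such fall of higher calls with length (1.12% at 28 to 60 nt and 2.72% over 180 nt).

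Other features of the called exons were described in the same way. Exons lower with RBFOX1N-dCasRx-C than with dCasRx had median introns of 547 nt upstream and 584 nt downstream, against 1826 and 1904 nt for all tested near-constitutive exons. Exons that were higher in the RBM25 than in the RBFOX1N libraries had median introns of 847 and 944 nt and a median GC content of 56.4%, against 47.9% for those lower and 48.8% for all tested. The last base was G in 88.0% of the exons lower with dCasRx-RBM25 than with dCasRx and in 69.5% of those higher, against 80.0% of all tested. CAG as the last 3 bases was found in 34.3% and 15.0% of these exons, against 23.5% of all tested. Exon sequence was at hand for only 78.3% of the exons lower with RBFOX1N-dCasRx-C than with dCasRx, so no base content is given for them.

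The exons with the largest falls in the RBM25 libraries were in genes of varied function. In CUL5, a scaffold of cullin-RING ubiquitin ligases, an exon of 177 nt had a PSI of 100% and 96.8% in the dCasRx libraries, 79.6% to 85.7% with a median of 83.5% in the RBM25 libraries, and 98.8%, 95.4%, 94.7% and 97.7% in the RBFOX1N libraries. All 6 RBM25 libraries lay below the 6 others. The difference from dCasRx was -15.33 ± 1.92 points (SE, adjusted p = 0.000541), and that from RBFOX1N-dCasRx-C -13.62 ± 1.51 points (adjusted p = 1.61e-05). These values rest on 113 skipping reads in the RBM25 libraries, 3 in the dCasRx libraries and 13 in the RBFOX1N libraries.

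In MMS22L, which acts with TONSL in the repair of stalled replication forks, the 126 nt exon shown above had 98.3% and 100% in the dCasRx libraries, 75% to 94.5% with a median of 86.4% in the RBM25 libraries, and 100%, 98.7%, 100% and 97.5% in the RBFOX1N libraries. The RBM25 libraries lay below all others but spread over nearly 20 points, with both CD46 guide libraries lowest at 75% and 77.7%. The difference from dCasRx was -14.52 ± 4.40 points (adjusted p = 0.00966). That call was lost under 2 of 15 alternatives to the main processing, among them the nontargeting guide only. In PNPLA6, a lysophospholipase also called neuropathy target esterase, the 64 nt exon had 98.5% and 100% with dCasRx, 81.2% to 89.9% with a median of 86.6% with dCasRx-RBM25, and 95.5%, 94.9%, 98.9% and 94.2% with RBFOX1N-dCasRx-C. Its difference from dCasRx was -13.33 ± 2.10 points (adjusted p = 0.00181), with no overlap of the RBM25 libraries with the others.

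PFKFB4, an enzyme that sets the level of fructose 2,6-bisphosphate, had the largest fall against dCasRx, -16.43 ± 3.18 points (adjusted p = 0.0397), at a 57 nt exon with 76.3% to 88.1% in the RBM25 libraries and 96.7% or more in every other library. This call against dCasRx was lost under 6 of 14 alternatives to the main processing, among them the nontargeting guide only. PBXIP1, OFD1, TECPR1, ZBTB17, LCOR and a 52 nt exon of KIF20B complete the 10 largest falls, with differences of -15.53 to -12.96 points and adjusted p from 0.00216 to 0.0438. Among these, OFD1 lost its call under the most alternatives, 5 of 14, and ZBTB17 under the fewest, 1 of 15. OFD1 is a protein of centrioles and basal bodies, KIF20B a kinesin of cytokinesis, ZBTB17 a zinc finger transcription factor and LCOR a nuclear receptor corepressor. The LCOR exon lies in a UTR. Against RBFOX1N-dCasRx-C the largest falls were again in PFKFB4 (-16.41 points) and KIF20B (-15.38), with ZNF236 at -15.22, where the RBM25 libraries had 73.6% to 91.1% and all 6 others 100%. DOPEY1, SBF2, TJP1 and TTLL7 had falls of -13.44 to -13.29 points between the fusions (adjusted p from 0.00539 to 0.0268). TJP1 is the tight junction protein ZO-1, SBF2 a myotubularin-related pseudophosphatase and TTLL7 a tubulin polyglutamylase.

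KHDRBS1, HNRNPDL and TRA2B had smaller falls on more reads. In KHDRBS1, the STAR family RNA-binding protein Sam68, the 117 nt exon had 94.7% and 95.5% in the dCasRx libraries, 87.1% to 89.9% with a median of 87.9% in the RBM25 libraries, and 94.4%, 95%, 94.3% and 94.99% in the RBFOX1N libraries. Its difference was -6.98 ± 0.71 points from dCasRx (adjusted p = 7.74e-08) and -6.52 ± 0.56 points from RBFOX1N-dCasRx-C (adjusted p = 1.17e-11), and at least 1417 reads in each library stood behind each PSI. The level of the KHDRBS1 gene differed by 0.13 on the log2 scale between dCasRx-RBM25 and dCasRx (edgeR adjusted p = 0.146).

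HNRNPDL, which encodes an hnRNP protein, had 3 exons that were lower with dCasRx-RBM25 than with dCasRx. The 162 nt exon had 97.1% and 96.8% in the dCasRx libraries, 87.8% to 91.4% with a median of 88.2% in the RBM25 libraries, and 96.0%, 95.2%, 94.4% and 94.2% in the RBFOX1N libraries, a difference from dCasRx of -8.10 ± 0.96 points (adjusted p = 1.1e-08). The exons of 169 nt and 132 nt differed by -7.04 and -5.06 points. All 3 lie in 1 gene and share its transcripts. At each of them the RBM25 libraries lay below the other 6.

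In TRA2B, an SR-like splicing factor, the 189 nt exon had 96.7% and 97.4% with dCasRx, 85.5% to 90.4% with a median of 87.4% with dCasRx-RBM25, and 93.9%, 92.5%, 93.1% and 91.8% with RBFOX1N-dCasRx-C. It differed from dCasRx by -9.23 ± 1.17 points with dCasRx-RBM25 (adjusted p = 2.33e-08). With RBFOX1N-dCasRx-C the difference was -4.27 points (adjusted p = 0.000246), short of the 5 points needed for a call. A second TRA2B exon of 134 nt had another order, with 94.5% and 96.0% in the dCasRx libraries, 91.8% to 94.7% in the RBM25 libraries and 90.3%, 88.9%, 88.2% and 89.7% in the RBFOX1N libraries. That exon differed from dCasRx by -5.97 ± 0.88 points with RBFOX1N-dCasRx-C (adjusted p = 8.97e-06) and by -1.50 points with dCasRx-RBM25 (adjusted p = 0.239).

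Over the whole lists of splicing factors, the list medians were near 0, and the counts of calls are given as values. Of all tested near-constitutive exons, 2.0%, 1.83% and 3.57% were called in the 3 comparisons, and of all events 2.35%, 3.11% and 7.04%. With lists this small, the counts here and in the next paragraph do not show that these genes were spared or affected more. Of 41 tested near-constitutive exons of SR and SR-related genes, 1 was called lower in each comparison: TRA2B against dCasRx in both cases, and TRA2A, a paralogue of TRA2B, at -5.67 points between the fusions. Of 93 exons of hnRNP, PCBP and PTB genes, 1 was higher and 3 lower with dCasRx-RBM25 than with dCasRx (PTBP2, the neuronal PTB protein, at 12.78 points, and HNRNPDL), 1 was higher with RBFOX1N-dCasRx-C (HNRNPUL2, 6.82 points), and 2 were higher (PTBP2 and HNRNPLL, 8.33 and 5.74 points) and 2 lower (HNRNPDL and another PTBP2 exon, -6.08 and -6.62 points) between the fusions. Of 95 exons of U1 snRNP partners, 1 was higher and 1 lower with each fusion than with dCasRx. The higher exon with dCasRx-RBM25 was in PRPF39, a relative of a yeast U1 snRNP protein (8.14 points). The higher exon with RBFOX1N-dCasRx-C was in LUC7L (5.25 points), a call lost under 7 of 13 alternatives to the main processing. Of 93 exons of U2AF, SF1 and SF3 factors, only the CHERP exon was called against dCasRx, at -5.26 points with dCasRx-RBM25. Of 29 exons of RBFOX, MBNL, CELF, QKI, NOVA and KHDRBS1 genes, the KHDRBS1 exon was called lower with dCasRx-RBM25 and none with RBFOX1N-dCasRx-C. The list medians of the difference from dCasRx ran from -0.21 to 0.44 points over all 7 lists and both fusions, and the medians over all tested near-constitutive exons were -0.18 and -0.13 points, against 0.003 and -0.092 points over all events tested.

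Of 75 tested exons of nonsense-mediated decay (NMD) genes, 1 was lower with dCasRx-RBM25 than with dCasRx, 1 higher with RBFOX1N-dCasRx-C than with dCasRx and 2 lower between the fusions. Of 24 exons of exon junction complex genes, 1 was higher than with dCasRx for each fusion. SMG5, an adaptor of NMD, had a 138 nt exon at 95.1% and 93.9% with dCasRx, 87.5% to 90.7% with a median of 89.3% with dCasRx-RBM25, and 98.1%, 96.3%, 96.5% and 97.8% with RBFOX1N-dCasRx-C. It differed by -5.24 ± 0.83 points from dCasRx (adjusted p = 0.00161) and by -7.96 ± 0.65 points from RBFOX1N-dCasRx-C (adjusted p = 9.72e-10). UPF1, the NMD helicase, differed by -5.17 ± 0.77 points between the fusions (adjusted p = 1.39e-05) at a 144 nt exon. UPF3B, which links NMD to the exon junction complex, had a 44 nt exon at 92.3% and 86.1% with dCasRx and 98.0% to 99.5% with RBFOX1N-dCasRx-C, a difference of 9.64 ± 1.76 points (adjusted p = 0.000225). The 38 nt exon of CASC3, a core component of the exon junction complex, had 93.8% and 88.2% with dCasRx, 95.5% to 97.9% with a median of 97.4% with dCasRx-RBM25, and 98.9%, 98.2%, 98.3% and 97.6% with RBFOX1N-dCasRx-C. It differed from dCasRx by 6.11 ± 1.24 points (adjusted p = 0.00953) and 7.27 ± 1.32 points (adjusted p = 0.00174).

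**Figure D3:**
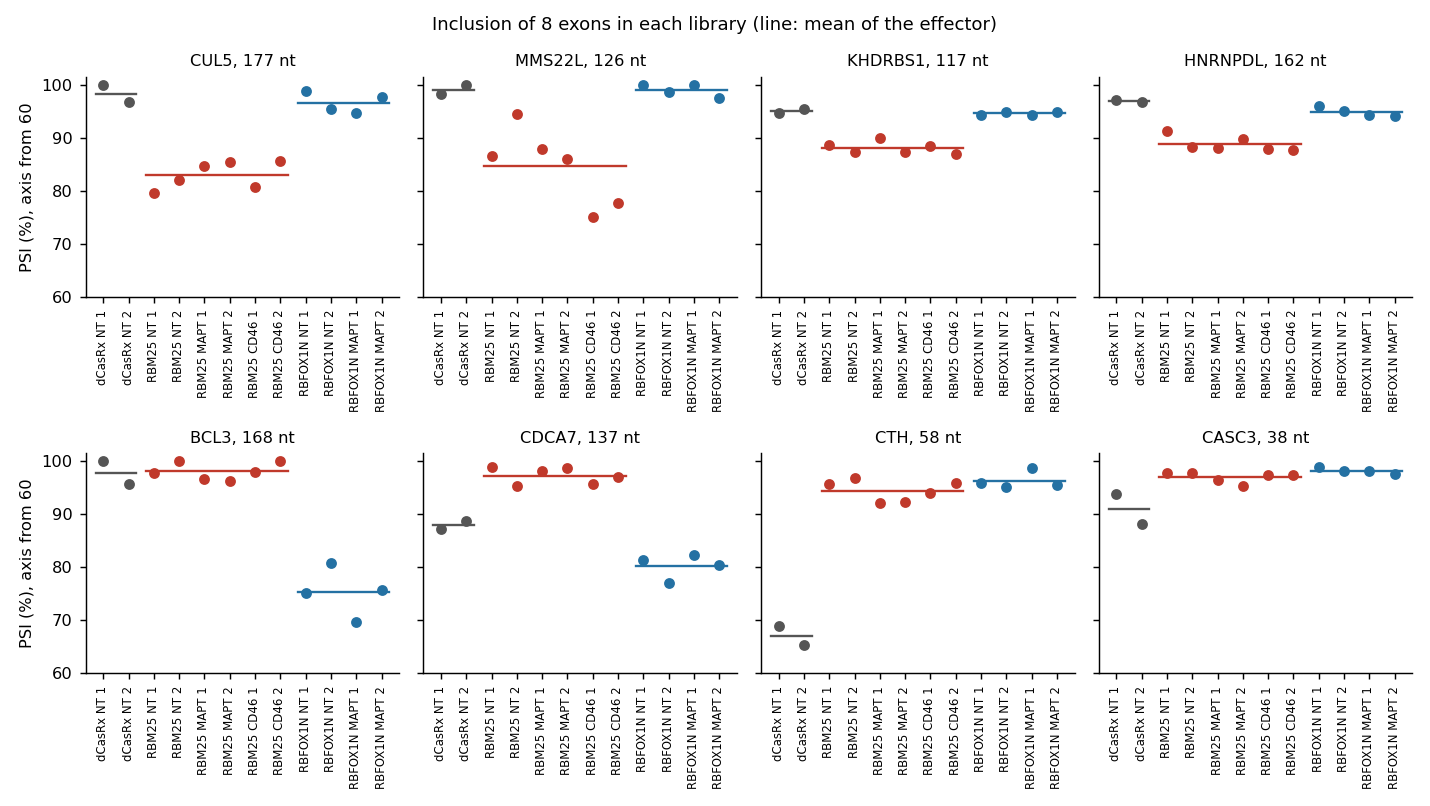
PSI (percent, y axis from 60) of 8 near-constitutive exons in each of the 12 libraries (x axis), with a line at the mean of each effector. The 6 RBM25 libraries are lowest for CUL5, MMS22L, KHDRBS1 and HNRNPDL, the 4 RBFOX1N libraries for BCL3 and CDCA7, and the 2 dCasRx libraries for CTH and CASC3.

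The largest fall was -26.93 points with RBFOX1N-dCasRx-C and -16.43 points with dCasRx-RBM25, for which the choice of exons sets different limits. In BCL3, an atypical IκB protein that works with NF-κB p50 and p52, the 168 nt exon had 100% and 95.8% in the dCasRx libraries, 96.3% to 100% with a median of 97.9% in the RBM25 libraries, and 75.2%, 80.9%, 69.7% and 75.8% in the RBFOX1N libraries. All 4 RBFOX1N libraries lay below the 8 others, by -22.50 ± 2.65 points from dCasRx (adjusted p = 0.00713), and dCasRx-RBM25 exceeded RBFOX1N-dCasRx-C by 22.71 ± 1.97 points (adjusted p = 1.17e-07). The level of the BCL3 gene was higher by 1.78 on the log2 scale with RBFOX1N-dCasRx-C than with dCasRx (edgeR adjusted p = 4.36e-06). The part of that level in the PSI was not tested.

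CUL9, a cullin, fell by the most, -26.93 ± 3.86 points from dCasRx (adjusted p = 0.00397), at a 228 nt exon with 100% in both dCasRx libraries, 94.2% to 100% in the RBM25 libraries, and 82.5%, 70.4%, 73.8% and 65.7% in the RBFOX1N libraries. DFNA5, now known as gasdermin E, SYP, MST1, SMTN, ZNF175, LAMA5, ZSWIM8 and FAM65A complete the 10 largest falls, at -20.50 to -16.73 points and adjusted p from 2.23e-06 to 0.0474. Among these, DFNA5 lost its call under the most alternatives to the main processing, 6 of 12, and ZSWIM8 and FAM65A under 0 of 13. SYP is the synaptic vesicle protein synaptophysin, SMTN a smooth muscle cytoskeletal protein, and LAMA5 a laminin chain. In ZSWIM8, an adaptor of a ubiquitin ligase in microRNA decay, the 120 nt exon had 98.7% and 99.2% with dCasRx, 90.02% to 94.7% with a median of 93.7% with dCasRx-RBM25, and 81.8%, 80.1%, 83.2% and 83.6% with RBFOX1N-dCasRx-C. The 3 effectors did not overlap at this exon, with differences from dCasRx of -5.80 ± 1.27 points for dCasRx-RBM25 (adjusted p = 0.0104) and -16.76 ± 1.34 points for RBFOX1N-dCasRx-C (adjusted p = 2.23e-06).

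CDCA7, a MYC target that takes part in chromatin remodelling, had the effectors in another order. Its 137 nt exon had 87.3% and 88.8% with dCasRx, 95.3% to 98.99% with a median of 97.6% with dCasRx-RBM25, and 81.5%, 77.0%, 82.3% and 80.5% with RBFOX1N-dCasRx-C. The 3 ranges did not overlap. The exon was higher than with dCasRx by 9.29 ± 1.48 points with dCasRx-RBM25 (adjusted p = 5.65e-05) and lower by -7.72 ± 1.57 points with RBFOX1N-dCasRx-C (adjusted p = 0.0282). The fusions differed by 17.01 ± 1.17 points (adjusted p = 2.15e-11) on 342 to 498.5 reads per library, while the level of the gene differed by 0.01 on the log2 scale (edgeR adjusted p = 0.873).

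Other exons with large differences between the fusions were also lower in the RBFOX1N libraries. A 70 nt exon of the noncoding RNA gene LINC01578 had 100% in both dCasRx libraries, 99.2% to 100% in the RBM25 libraries, and 85.4%, 81.5%, 82.9% and 83.7% in the RBFOX1N libraries, a difference of 16.30 ± 0.63 points between the fusions (adjusted p = 2.16e-12). The level of LINC01578 differed by -0.99 on the log2 scale for dCasRx-RBM25 relative to the other fusion (edgeR adjusted p = 7.81e-05). LRP1, an endocytic receptor, differed by 19.04 ± 5.34 points (adjusted p = 0.00041), with 85.1%, 59.1%, 88.1% and 88.3% in the RBFOX1N libraries, 1 of which was far below the others. SMTN differed by 20.04 ± 0.99 points (adjusted p = 5.61e-09), LCAT, an enzyme of cholesterol esterification in plasma, by 17.70 points, and SYP, MST1, CUL9 and FAM65A by 16.83 to 25.96 points.

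The exons with the largest rises against dCasRx were mostly short. In CTH, which encodes cystathionine gamma-lyase, the enzyme that makes cysteine from cystathionine, the 58 nt exon had 69.0% and 65.3% in the dCasRx libraries, 92.2% to 96.8% with a median of 94.9% in the RBM25 libraries, and 95.9%, 95.2%, 98.8% and 95.5% in the RBFOX1N libraries. Both dCasRx libraries lay more than 20 points below every other library. The exon was higher by 27.40 ± 1.59 points with dCasRx-RBM25 (adjusted p = 7.69e-08) and by 29.26 ± 1.68 points with RBFOX1N-dCasRx-C (adjusted p = 1.57e-07). A difference between the fusions was not called (-1.86 ± 1.25 points, adjusted p = 0.416).

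CTH held 10 near-constitutive exons, of which 6 were tested. In the comparison of dCasRx-RBM25 with dCasRx, 4 of them had an adjusted p under 0.05, all higher, at lengths of 82, 58, 122 and 53 nt. With RBFOX1N-dCasRx-C, 4 had an adjusted p under 0.05 and were higher, at 96, 58, 122 and 53 nt. The 53 nt exon had 83.4% and 74.8% with dCasRx, 93.3% to 98.9% with dCasRx-RBM25, and 97.0%, 93.6%, 92.4% and 97.2% with RBFOX1N-dCasRx-C. The 4 untested CTH exons, of 110, 78, 153 and 139 nt, had mean PSI of 99.7 or more with every effector. Of these, 3 (110, 78 and 153 nt) lie between exons that were tested, and the 139 nt exon lies downstream of all tested exons. The level of the CTH gene differed by -0.16 (edgeR adjusted p = 0.368) and -0.33 (adjusted p = 0.0631) on the log2 scale from dCasRx.

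**Figure D4:**
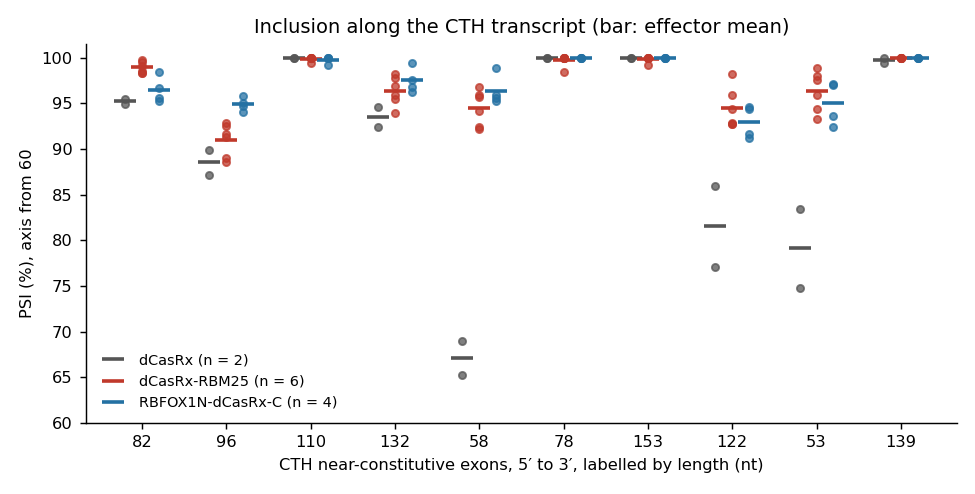
PSI (percent, y axis from 60) of the 10 near-constitutive exons of CTH in 5′ to 3′ order, labelled by length in nt (x axis), with 1 point per library and a bar at the mean of each effector. The dCasRx libraries are lowest at the exons of 58, 122 and 53 nt, and the exons of 110, 78, 153 and 139 nt stay near 100% in every library.

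DNAL1, an axonemal dynein light chain, had 81.8% and 73.1% at a 56 nt exon with dCasRx, 92.7% to 100% with dCasRx-RBM25, and 97.2%, 92.7%, 97.3% and 94.2% with RBFOX1N-dCasRx-C, a difference of 17.91 ± 2.58 points (adjusted p = 0.0124) and 17.88 ± 2.73 points (adjusted p = 0.0159). HACE1, a ubiquitin ligase, had 81.5% and 82.1% at a 55 nt exon with dCasRx and 97.7% to 100% with dCasRx-RBM25, a difference of 17.08 ± 1.80 points (adjusted p = 0.00382). MOSPD2, UBR1 and STXBP5 were higher by 17.63, 19.23 and 23.09 points with dCasRx-RBM25. With RBFOX1N-dCasRx-C, STXBP5, CEP89, CCDC22, PLXND1, CNST, WDPCP and SSH2 were higher by 18.03 to 22.56 points. STXBP5 is tomosyn, an inhibitor of vesicle fusion, PLXND1 a semaphorin receptor and CEP89 a protein of the centriole. In UBR1, CNST, WDPCP and SSH2 the low value was mainly that of dCasRx replicate 2 (61.2%, 69.4%, 68.8% and 62.8%), with 90% or more in replicate 1. Coverage was low, at 11 to 58.5 reads per library for STXBP5, CEP89, PLXND1, CNST, WDPCP and SSH2, and on counted reads the calls of STXBP5 (adjusted p = 0.0518) and CNST (adjusted p = 0.0618) with RBFOX1N-dCasRx-C ended.

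The PSI of some listed exons rests on very few skipping reads that the table scales up for poor mappability of the junction. In GNE, the enzyme that starts sialic acid synthesis, the 206 nt exon had 72.8% and 41.3% in the dCasRx libraries, 70.5% in 1 RBM25 library and 100% in the 9 others, which gave the largest rises of all, 38.04 ± 9.51 and 42.96 ± 10.09 points (adjusted p = 0.0318 and 0.00798). Only 5 skipping reads were counted in all libraries together, 4 of them in the dCasRx libraries, and with the reads as counted the rises were 4.99 and 5.32 points (adjusted p = 0.14 and 0.108). ATP13A2 and PPM1M, with 5 and 4 skipping reads, were higher with dCasRx-RBM25 than with dCasRx by 20.98 and 23.80 points, and by 2.13 and 2.47 points as counted. CHD2, with 16 reads, was higher with RBFOX1N-dCasRx-C than with dCasRx by 22.27 points, and by 2.39 points as counted. TMEM145, with 5 reads, differed by -13.55 points between the fusions, and by -3.10 points as counted. None of these was called on counted reads. Among the 632, 580 and 1128 called exons, 4, 3 and 8 had fitted skipping reads of more than 2 times the counted ones, so the counts of calls change little: 607, 565 and 1068 of the calls were kept on counted reads.

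Few near-constitutive exons were called between guides. With dCasRx-RBM25, the MAPT guide gave 2 calls against the nontargeting guide, both lower, and the CD46 guide 2, both lower, against 0.00797% of all events in each comparison (0.00498% higher and 0.00299% lower for MAPT, 0.00199% higher and 0.00598% lower for CD46). With RBFOX1N-dCasRx-C, the MAPT guide gave 1 call, lower, against 0.0179% of all events (0.00498% higher, 0.013% lower). The calls were 0.00633%, 0.00633% and 0.00316% of the tested near-constitutive exons, in this order. Each comparison has 2 libraries on a side and no simulation was run for it, so few calls do not show that few exons changed. The share of tested near-constitutive exons with an unadjusted p under 0.05 was 6.63%, 7.16% and 6.69%, against 5.4%, 5.59% and 5.51% of all events tested. No near-constitutive exon passed the test of a different MAPT guide effect in the 2 fusions (5 of all events did), which was the only tool run for it. In that test 2138 of 31613 had an unadjusted p under 0.05. The matching share over all events was not computed, so this count has no background to be read against.

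The 4 calls with dCasRx-RBM25 ended when the counted reads were used. TFB1M, a mitochondrial rRNA methyltransferase, gave both CD46 guide calls: its 128 nt exon had 74.7% and 76.5% in the CD46 guide libraries and 97.0% to 99.3% in the 4 other RBM25 libraries, and its 120 nt exon 74.2% and 73.6%, with differences of -23.71 and -25.70 points (adjusted p = 0.0207 and 0.0124). These values came from 2 and 3 skipping reads for the first exon and 1 and 2 for the second. As counted, the differences were -1.42 and -1.09 points (adjusted p = 0.966 and 0.981). PFKM, muscle phosphofructokinase, had 76.3% in 1 MAPT guide library and 98.5% in its replicate, with 4 skipping reads in each, and differed by -0.49 points as counted. ATXN7L3, a subunit of the SAGA deubiquitinase module, had 87.6% and 92.6% with the MAPT guide and 99.2% and 100% with the nontargeting guide, on 10 skipping reads and 1, and by -2.55 points as counted (adjusted p = 0.782).

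The call with RBFOX1N-dCasRx-C was in PRKDC, the catalytic subunit of DNA-dependent protein kinase. Its 93 nt exon had 86.8% and 87.6% in the 2 MAPT guide libraries, 96.7% and 95.5% with RBFOX1N-dCasRx-C and the nontargeting guide, and 96.0% to 98.4% in the 8 other libraries. The difference was -8.86 ± 0.61 points (adjusted p = 0.00143), and 60 and 61 skipping reads were counted in the MAPT guide libraries against 14 and 23 with the nontargeting guide. The call was kept with counted reads and when any 1 RBFOX1N library was left out, and was lost with limma (adjusted p = 0.583).

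The near-constitutive exons of the targeted genes themselves were not called. MAPT, which encodes the microtubule protein tau, held 7, of which 4 were tested, and CD46, a complement regulator, held 9, of which 3 were tested. Over all 12 libraries the MAPT exons had a PSI of 92.5% to 100% and the CD46 exons 90.3% to 100%. The lowest CD46 values were at a 42 nt exon, with 96.7% and 92.2% in the CD46 guide libraries and 94.6% and 96.1% with dCasRx-RBM25 and the nontargeting guide. These ranges overlapped.

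Skipping confined to a single library was rare among these exons. In 50 exons 1 library was at least 20 points below each of the 11 others, 13 of them in dCasRx replicate 2, 12 in RBFOX1N MAPT guide replicate 2 and 7 in its replicate 1. Only 2 of the 50 had at least 100 reads in each library. One was PFKM, described above, and the other a 152 nt exon of ZFAND2B, a proteasome-associated zinc finger protein, with 64.2% in RBM25 NT replicate 2 and 98.2% or more elsewhere. The ZFAND2B value rests on 5 counted skipping reads, and the PSI from counted reads was 96.2%.

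Called exons were mostly alone in their gene. With dCasRx-RBM25 against dCasRx, 70 of 537 genes held more than 1 called near-constitutive exon, and in 61 of these all moved in 1 direction. The counts were 69 of 488 genes and 57 with RBFOX1N-dCasRx-C, and 151 of 920 genes and 123 between the fusions. KIF20B held 7 exons with an adjusted p under 0.05 and lower PSI between the fusions out of 11 tested, and FAM65A 4 of 6 with higher PSI.

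The level of the genes that hold called exons was compared with edgeR over 20593 genes. Only called exons that match a GENCODE exon at both ends were linked to a gene, so some called exons are left out here. Genes with a called exon needed at least 20 reads at it in every library. The 20593 genes did not, so the shares below are not of like genes. With dCasRx-RBM25 against dCasRx, 18.5% of all genes were called (8.94% higher, 9.56% lower), and of 260 tested genes with an exon of lower PSI, 53 were higher and 10 lower, while of 217 genes with an exon of higher PSI, 11 were higher and 30 lower. With RBFOX1N-dCasRx-C, 23.4% of all genes were called (13.2% higher, 10.2% lower), and of 195 genes with an exon of lower PSI, 59 were higher and 5 lower, while of 238 genes with an exon of higher PSI, 43 were higher and 20 lower. Between the fusions, 41.6% of all genes were called (20.5% higher, 21.1% lower), and of 364 genes with an exon of higher PSI with dCasRx-RBM25, 49 were higher and 124 lower, and of 450 genes with an exon of lower PSI, 79 were higher and 96 lower. In each of these sets the split had the same direction for exons that keep the reading frame and those that shift it, but its size differed in some. Among genes with a lower exon with dCasRx-RBM25, 24 of 126 with an exon of a multiple of 3 were higher and 4 lower, and 33 of 151 with another length were higher and 7 lower. The median log2 difference was 0.09 for both. Without dCasRx replicate 2, 1275 genes were called with dCasRx-RBM25 and 1580 with RBFOX1N-dCasRx-C, in place of 3808 and 4815.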

How the data were processed

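RNA-seq libraries of 12 HEK293T samples (6 groups of 2) were placed in groups by their titles. The authors deposited read counts for 62710 genes, and a table in the vast-tools layout with the PSI (percent) of each splicing event and, per the file headers and cell layout, junction reads. Per the submitters' processing notes STAR 2.7.10, edgeR and hg38 were used, with no role stated. The annotation, the strand setting of the counting and the vast-tools version were not given in the sources used.

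The corrected reads in the table sum to all junction reads, so in near-constitutive exons corrected exclusion reads were a median of 1.97 times the skipping reads counted. Cassette exons were therefore tested on skipping reads plus the mean of the 2 inclusion junctions, divided by the deposited PSI, in place of the corrected reads first planned; 1120 cassette exons without parsed junction reads, none of them near-constitutive, kept the corrected reads. A quasi-binomial model of 3 effector means (9 residual degrees of freedom; for guides 6 group means, 6 residual) used dispersions shrunk toward their common value (prior df 18.4 and 28.7) and floored at 1, a two-sided F test and Benjamini-Hochberg adjustment over 100383 events with at least 20 reads in each library and 24 of the less used form. Both read limits were applied to the corrected reads. SE come from the pooled spread of PSI within effectors or groups. Genes were tested with edgeR 4.0.16 (TMM, quasi-likelihood, R 4.3.3). DESeq2 1.42.0 and limma 3.58.1 were alternatives. The reads are not independent molecules. With 2 libraries per group, p-values for exons rest more on a spread shared over events than on the libraries of the single exon. That spread is between these samples and may be technical. Both tests were tested on simulated data for dCasRx-RBM25 against dCasRx. Of 100 exons with 10 times the odds of skipping, 98 were called, and of 100 with 4 times, 63, with 18 calls among unchanged events of 100383. The changed exons were drawn only from well-covered near-constitutive exons with some skipping, using the fitted dispersions. These rates therefore do not cover exons with few reads or almost no skipping. For genes, edgeR recovered 99% of 200 changed 2-fold, with 13 false calls among 20593 genes. The changed genes were drawn only from those with higher mean counts.

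Exons named are the 10 largest called falls and rises of each effector comparison, all calls of the guide comparisons, all exons of MAPT and CD46, and called exons of 7 lists of splicing factors, of which 1 exon is not reported here; single-library exons, the exons whose sequence is printed and the exons of CTH, KIF20B and FAM65A were chosen after their values were seen. The exons and lists were chosen with earlier results of these data known. Exons were matched to GENCODE release 29.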

Additional observations from a re-analysis of the deposited data

Results flagged for a closer look

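Within the 6 RBM25 or 4 RBFOX1N libraries, 106 sets of values (the PSI of named exons and the share of skipping reads) were checked with Dixon's ratio of the gap to the range, whose critical value is set so that chance passes it in about 1 in 20 sets. In 11 sets of PSI values that spread over at least 5 points, 1 library was past it. The 5-point limit was not part of that rate, and exons of 1 gene or with few skipping reads are not independent draws, so the 11 are listed as values only. In the RBM25 libraries, these were GNE at 70.5% (MAPT guide, replicate 2), PFKM at 76.3%, CHD2 at 87.1% and CCDC22 at 100% (MAPT guide, replicate 1), ZNF236 at 73.6% (NT, replicate 2) and CUL9 at 94.2% (NT, replicate 1). In the RBFOX1N libraries, they were the TFB1M exons at 60.1% and 60.5% and TJP1 at 94.6% (MAPT guide, replicate 2), PPM1M at 63.9% (MAPT guide, replicate 1) and LRP1 at 59.1% (NT, replicate 2). In GNE, PPM1M, CHD2, PFKM and TFB1M the skipping reads counted were 5, 4, 16, 41, and 23 and 10, over all libraries.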

How the results depend on the processing

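Counts of called near-constitutive exons follow the order dCasRx-RBM25 against dCasRx (632), RBFOX1N-dCasRx-C against dCasRx (580) and dCasRx-RBM25 against RBFOX1N-dCasRx-C (1128). At 10 points they were 116, 155 and 142. With the nontargeting guide only they were 527, 446 and 734, with limma on logit PSI 478, 419 and 896, with 50 reads per library 658, 569 and 1040, with the corrected reads 684, 588 and 1149, and with uncorrected junction reads 728, 640 and 1174; the last 2 were chosen after seeing the data. Limma gave 21.8% of calls higher for dCasRx-RBM25 against dCasRx, where the main share was 43.7%, and 37.2% in place of 52.2% for RBFOX1N-dCasRx-C. Leaving out 1 library gave 206 to 668, 258 to 540 and 1003 to 1140, the lowest 2 without dCasRx replicate 2; where 1 dCasRx library was left, it was assumed to vary like the other groups. Without dCasRx replicate 1 the counts were 370 and 404, with 56.5% and 61.6% higher. The calls kept without replicate 2 were 157 of 632 and 206 of 580.

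For the guides (2, 2 and 1 calls: MAPT and CD46 with dCasRx-RBM25, MAPT with RBFOX1N-dCasRx-C), the corrected reads gave 0, 0 and 1, uncorrected reads 0, 0 and 2, 10 points 1, 2 and 0, limma 1, 2 and 0, and leaving out 1 library 2 to 6, 4 to 6 and 1 to 6. The nontargeting guide alternative does not apply to them. Of 1445 values of named exons under alternatives, 229 lost the call and 3 lost their direction, all against dCasRx: without dCasRx replicate 1, ATP13A2 went to -0.14 and PPM1M to 0.0, and without replicate 2, CHD2 went to -0.45. The 1445 include values of the MAPT and CD46 exons, which were not called and so could not lose a call. Leaving out 1 library gave -0.14 to 42.1 points for ATP13A2, 0.0 to 47.59 for PPM1M and -0.45 to 44.99 for CHD2. Called genes numbered 3808, 4815 and 8568, with the nontargeting guide only 1570, 2217 and 3430, and without 1 library 1275 to 4710, 1580 to 4811 and 6993 to 8877.

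Deviations of replicate 1 from its group mean, over the tested near-constitutive exons, were hardly correlated between groups (15 pairs of groups, correlations from -0.017 to 0.017). A shift common to all exons would not show in these correlations, and noise in exons with few skipping reads lowers them. They therefore do not settle whether replicate numbers pair libraries. With the replicate block the counts of exons were 639, 589 and 1123, those of the guides 4, 5 and 2, and those of genes 4041, 5134 and 8871.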
